A study of Homo sapiens with 19 samples.

Results

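Metallothioneins are small cysteine-rich proteins, and 8 of their genes were followed through human liver organoids by single-cell RNA sequencing: MT1A, MT1E, MT1F, MT1G, MT1H, MT1M, MT1X and MT2A. They were taken by family membership and matched by Ensembl identifier. All 8 were listed in every matrix, among 32732 identifiers shared by the 14 shaker libraries and 58721 identifiers of the 5 ULA libraries. Nothing in the mitochondrial filter touches them, since that filter counts only genes whose symbols start with MT-. Their messages were read as UMIs (molecular tags that count 1 captured RNA molecule each), and levels are given as CPM, UMIs scaled to the same total in every library over those identifiers, summed over its kept cells.

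The organoids were grown from W01, an established wild-type human pluripotent stem cell line distributed by WiCell, so every library derives from 1 line. The 19 libraries form 9 groups. Organoids in ultra-low attachment (ULA) plates were untreated and collected on day 21 (n = 3) or day 34 (n = 2). Organoids on an orbital shaker were collected on day 25 in 7 groups of 2 libraries each: untreated, TGFB1 at 10 ng/ml, PA at 500 µM, OA at 500 µM, and a separate control for each agent. TGFB1 is the cytokine transforming growth factor β1; PA and OA are given only as abbreviations, and OA and its control are named in titles and treatment labels while the protocol text mentions neither. TGFB1 and PA were given for 5 days after 20 days of culture. Dissociation was longer for the day 34 ULA and all shaker organoids, by 1 wash and 10 minutes in trypsin, than on day 21, so day and dissociation cannot be told apart in the ULA comparison. No label says that replicates came from separate cultures, so the p-values below measure the spread between libraries, which may be technical.

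Metallothioneins bind zinc and copper through their cysteines, buffer free zinc and take up cadmium. Liver is a classic site of their production, where zinc, glucocorticoids, cytokines and oxidative stress raise them. The zinc-sensing transcription factor MTF1 acts through metal response elements, short motifs with a TGC core found in several copies before metallothionein genes, and also drives SLC30A1, which exports zinc from the cell. MT2A is the major form in many human tissues, and the MT1 genes arose from repeated duplication.

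The 8 genes lie in 1 cluster of 75.6 kb on chromosome 16 (GRCh38, GENCODE v44), from 56608584 to 56684196. All are annotated as protein coding, 7 on the plus strand and MT1G on the minus strand. MT2A (56608584 to 56609497) opens the cluster, followed by MT1E (56625475 to 56627112), MT1M (56632659 to 56633981), MT1A (56638666 to 56640087), MT1F (56657731 to 56660698), MT1G (56666730 to 56668065) and MT1H (56669814 to 56671129). MT1X (56682470 to 56684196) closes it. The canonical transcript has 3 exons in 7 genes and 2 in MT1E. RefSeq promoter sequence (GRCh38.p14) was at hand for 3 of the 8 genes. They include the most abundant member, MT2A, as well as MT1X, and MT1H, whose UMIs sat in very few cells, and they are printed below because metal response elements are the family's defining regulatory feature. Each run is the 250 bases before the annotated start, on the plus strand, 5′ to 3′. Capitals mark every match to the metal response element core TGCGCNC or TGCACNC on either strand.
MT2A, chr16:56608334-56608583: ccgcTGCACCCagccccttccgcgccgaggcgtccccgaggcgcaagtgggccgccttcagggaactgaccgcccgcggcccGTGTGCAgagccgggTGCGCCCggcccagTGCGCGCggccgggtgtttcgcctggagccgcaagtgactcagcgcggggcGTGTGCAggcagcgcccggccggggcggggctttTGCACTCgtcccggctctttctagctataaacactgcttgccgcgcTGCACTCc
MT1X, chr16:56682220-56682469: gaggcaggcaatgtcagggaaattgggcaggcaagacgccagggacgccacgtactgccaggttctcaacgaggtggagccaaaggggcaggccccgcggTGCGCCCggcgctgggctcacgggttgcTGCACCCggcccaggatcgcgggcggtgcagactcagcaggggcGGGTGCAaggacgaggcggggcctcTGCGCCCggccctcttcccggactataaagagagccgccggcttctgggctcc
MT1H, chr16:56669564-56669813: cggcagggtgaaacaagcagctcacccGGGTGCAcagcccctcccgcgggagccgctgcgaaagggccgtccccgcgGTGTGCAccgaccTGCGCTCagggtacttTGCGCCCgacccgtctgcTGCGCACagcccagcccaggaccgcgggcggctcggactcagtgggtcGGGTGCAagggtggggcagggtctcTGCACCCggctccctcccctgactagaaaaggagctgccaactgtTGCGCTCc
The window of MT2A held 7 core matches, that of MT1H 8 and that of MT1X 4. Of 35116 RefSeq promoters cut to the same 250 bases, 24.8% held at least 1 such core, 0.370% at least 4, 0.0313% at least 7 and 0.0171% at least 8. TGCGCNC alone occurred in 16.8% of promoters and TGCACNC in 9.87%, and the cores do not overlap each other in the 3 windows. TATAAA on the gene's strand began 29 bases before the start in MT2A and 30 bases before it in MT1X, against 6.80% of promoters with that motif anywhere in the window. All of these are letter matches, and binding was not measured.

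Barcodes with 500 or more genes detected and no more than 20% of UMIs from mitochondria were kept as cells, 3089 to 12427 per library with 6880807 to 91184130 UMIs. Median UMIs per kept cell ran from 1310 (TGFB1 control 1) to 14304.5 (ULA day 34, replicate 1). A cell was called EPCAM-positive with at least 1 UMI of EPCAM, an epithelial adhesion gene, and 0 of COL1A2 and COL3A1. It was called collagen-positive with at least 1 UMI of either collagen gene and 0 of EPCAM; libraries with fewer than 50 cells in a gate were not used there. The gates differed in mesenchymal markers: the 10 mesenchymal markers beside the gate genes summed to 1781 to 8893 CPM in collagen-positive and 112 to 619 CPM in EPCAM-positive cells of shaker libraries. The 8 epithelial markers overlapped across libraries, at 1044 to 4484 CPM in collagen-positive and 4275 to 11424 CPM in EPCAM-positive cells, with the collagen-positive cells of OA at 3996 to 4484 CPM. Within a library, each of the 8 was higher in EPCAM-positive cells. This held in 13 of 13 shaker and 4 of 4 ULA libraries with at least 50 cells in each gate. Marker sums also cover gates under 50 cells, such as the 38 collagen-positive cells of OA replicate 2. Libraries shared few cell barcodes, at most 0.581% of the smaller library. The makeup of the organoids differed greatly: collagen-positive cells were 1.18% to 1.94% of OA cells, 3.92% to 10.0% in the TGFB1 and PA experiments, and 29.8% to 57.1% of untreated, OA control and both ULA groups. In summed libraries, fewer cells of a type and less RNA per cell cannot be told apart, which is why comparisons are repeated within a gate where its libraries allow.

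MT2A was the main metallothionein in every library. It made up 53.6% to 91.8% of the family's UMIs in shaker libraries and 77.6% to 87.9% in ULA libraries. By group mean (± SD), MT2A stood at 446 ± 330 CPM in ULA day 34 (n = 2), 316 ± 129 in TGFB1, 136 ± 15.2 in OA control, 120 ± 100 in untreated and 95.7 ± 10.3 in TGFB1 control. Below these came PA with 69.7 ± 40.8, PA control with 59.0 ± 2.12, OA with 42.0 ± 17.0 and ULA day 21 with 34.3 ± 15.9 CPM (n = 3). Only 2 steps in this order separated every library of 1 group from every library of the next, that from TGFB1 to OA control and that from PA control to OA; the other 6 pairs of neighbours overlapped. ULA and shaker levels rest on matrices with different gene lists and were not tested against each other. Gene lists also differed between experiments of the shaker series.

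MT1X ranged from 3.75 to 33.7 CPM in shaker libraries and from 4.41 to 80.8 CPM in ULA libraries. Its highest shaker value came from PA replicate 2 (33.7 CPM), while PA replicate 1 had 5.71 CPM. It had the highest level of the MT1 genes in most libraries but not in TGFB1 control replicate 1, where MT1F was higher, nor in PA control replicate 1 and PA replicate 1, where MT1G was. MT1E ranged from 1.30 to 10.7 CPM in shaker libraries and from 0.694 to 7.04 CPM in ULA libraries. The PA libraries alone thus covered most of the shaker range of MT1X, while both genes were highest on ULA day 34 among ULA libraries.

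MT1F and MT1G levels differed between the experiments of the shaker series. MT1F read 28.2 and 14.9 CPM in TGFB1 control and 8.06 and 8.26 CPM in TGFB1, 4.15 to 5.94 CPM in the 4 libraries of the PA experiment, and 1.09 to 2.72 CPM in untreated, OA control and OA. MT1G read 8.57 to 19.1 CPM in the 4 libraries of the PA experiment and 2.09 to 2.91 CPM in the 4 of the TGFB1 experiment. In untreated, OA control and OA it lay between 0.102 and 1.48 CPM, and in ULA libraries between 0.238 and 0.984 CPM. For MT1G the PA experiment, the TGFB1 experiment and the remaining shaker libraries did not overlap. The share of all genes that separate these libraries was not counted, and experiments were not tested against each other. Matrices of the TGFB1 and PA experiments list 33538 genes, and those of untreated, OA control and OA 36601. MT1G also sat in few cells, with 50% of its UMIs in 1 to 6 cells per shaker library. MT1H and MT1M were low, at most 6.01 and 2.65 CPM in shaker libraries, both reached in PA libraries. MT1A was close to absent: 9 of 14 shaker libraries had 0 UMIs, which allows up to 3 UMIs per library, 13 UMIs were counted in all, and 23 of the 26 ULA UMIs came from day 34 replicate 1.

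**Figure D1:**
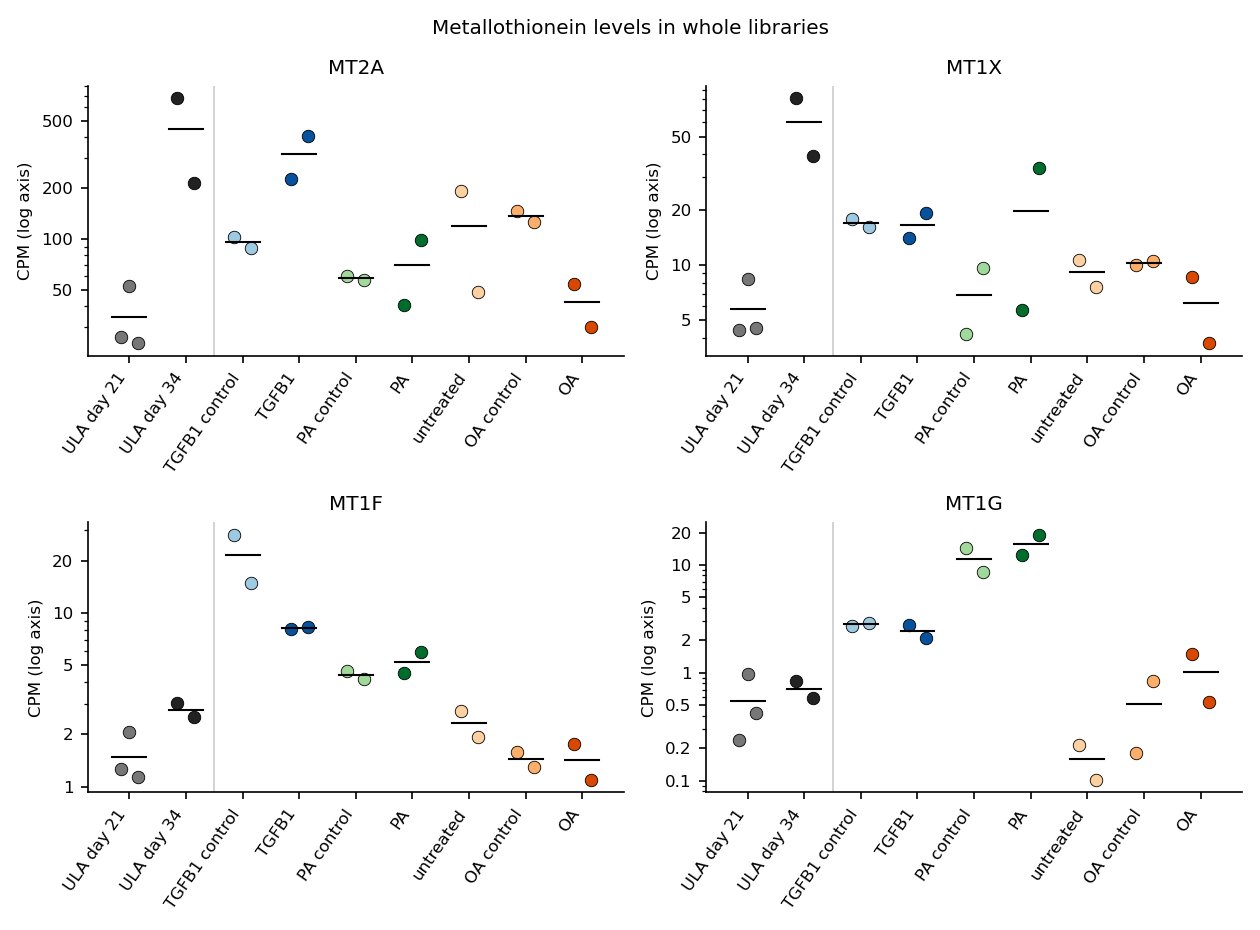
CPM (log axis) of MT2A, MT1X, MT1F and MT1G in whole libraries. Each point is 1 library, bars are group means, and the grey line divides ULA from shaker groups. MT2A was highest in ULA day 34 (213 and 679 CPM) and TGFB1 (225 and 407 CPM), and MT1G in the PA experiment (8.57 to 19.1 CPM).

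MT2A was higher in collagen-positive cells of both culture formats, and MT1F in EPCAM-positive cells of shaker organoids. In collagen-positive cells of 13 shaker libraries, MT2A ranged from 216 through a median of 615 to 2862 CPM. In EPCAM-positive cells of the 14 shaker libraries it ranged from 4.01 through a median of 23.0 to 57.3 CPM, so the gates did not overlap. MT2A was higher in collagen-positive cells in 13 of 13 shaker libraries, by 10.7 to 398 times with a median of 35.6; the top value came from OA replicate 1, whose 60 collagen-positive cells carry those epithelial markers, and the next was 153. Across all 18747 genes tested there, 19.6% went 1 way in every library. In a model with library as a block, edgeR's quasi-likelihood test gave a log2 difference (EPCAM-positive minus collagen-positive) of -5.19 (SE 0.21, Benjamini-Hochberg adjusted p 4.01e-16); 50.6% of genes passed in that test. Over all 14 shaker libraries, the 38-cell gate of OA replicate 2 included, collagen-positive cells held 29.6% to 78.6% (median 54.7%) of MT2A UMIs. They gave 0.448% to 28.1% (median 6.61%) of all UMIs. Free RNA from broken cells reaches all droplets, so the EPCAM-positive level may hold some of it: relative to collagen-positive cells it was 0.251% to 9.38% for MT2A, while the medians of the 10 mesenchymal markers ran from 0.290% (COL6A3) to 26.4% (COL6A1). The part of free RNA in the EPCAM-positive MT2A level was not tested.

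MT1X and MT1E leaned the same way in shaker organoids, and less far. MT1X was higher in collagen-positive cells in 12 of 13 libraries (log2 difference -1.70, SE 0.29, edgeR adjusted p 2.03e-05), and MT1E in 8 of 13 (-1.45, SE 0.28, adjusted p 9.07e-05). Both calls were lost without PA control replicate 2, where the edgeR adjusted p rose to 0.0558 for MT1X and 0.141 for MT1E. MT1F went the other way: 11 of 13 libraries had more in EPCAM-positive cells, with a log2 difference of 2.94 (SE 0.42, edgeR adjusted p 2.42e-06). The exceptions, PA replicate 1 and OA replicate 1, rested on 8 and 1 MT1F UMIs in collagen-positive cells. MT1F was fitted although both PA control libraries had 0 MT1F UMIs in collagen-positive cells. Its collagen-positive level rests on 43 UMIs over 13 libraries, 9 of them with 3 or fewer. MT1G and MT1H were higher in EPCAM-positive cells in 9 and 8 of 13 libraries, with 5 ties at 0 for MT1H. Neither had a usable estimate across groups, nor did MT1M, and each had groups with 0 UMIs in a gate. Of the 7 members that passed the filter on low counts in shaker organoids, 4 had a usable estimate, and these 4 passed the test. Among all tested genes 50.6% did, so no excess is read from the count. In EPCAM-positive cells 3 of the 4 were lower and 1 was higher. MT1A did not pass the filter on low counts.

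ULA organoids showed the same direction for MT2A and a different one for MT1X and MT1E. In collagen-positive cells MT2A read 63.5, 84.9 and 52.7 CPM on day 21 and 1149 and 434 CPM on day 34. In EPCAM-positive cells it read 5.96, 31.5 and 7.68 CPM on day 21 and 75.7 CPM in day 34 replicate 2; day 34 replicate 1 held only 23 such cells and was not used. MT2A was thus higher in collagen-positive cells in 4 of 4 ULA libraries, by 2.70 to 10.6 times, with a log2 difference of -2.33 (SE 0.19, edgeR adjusted p 1.10e-09). With 4 libraries, 63.9% of tested genes went 1 way in every library, and 52.8% passed edgeR's test. MT1E and MT1X were higher in EPCAM-positive cells, by 1.50 (SE 0.36) and 0.74 (SE 0.16) on the log2 scale, with edgeR adjusted p of at most 0.00138. MT1F gave 161 UMIs in EPCAM-positive and 23 in collagen-positive cells of these 4 libraries, MT1G 103 and 20, and MT1H 18 and 1. Since these 3 were too low for the filter in collagen-positive cells alone and entered through the EPCAM-positive ones, their counts are a description, with no test. The MT1E call was lost when the cells richest in each member were removed (edgeR adjusted p 0.0533). MT1X was higher in EPCAM-positive cells in 3 of 4 ULA libraries and 1 of 13 shaker libraries, and MT1E in 3 of 4 and 5 of 13. That contrast between culture formats was not tested. The ULA exception for MT1E was the 1 day 34 library, at 2.33 CPM in EPCAM-positive and 2.69 CPM in collagen-positive cells. Its mean difference of 1.50 thus joins days that differed in direction. Cells with UMIs of both EPCAM and a collagen gene gave 36.7% to 70.7% of all ULA UMIs and belong to neither gate.

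**Figure D2:**
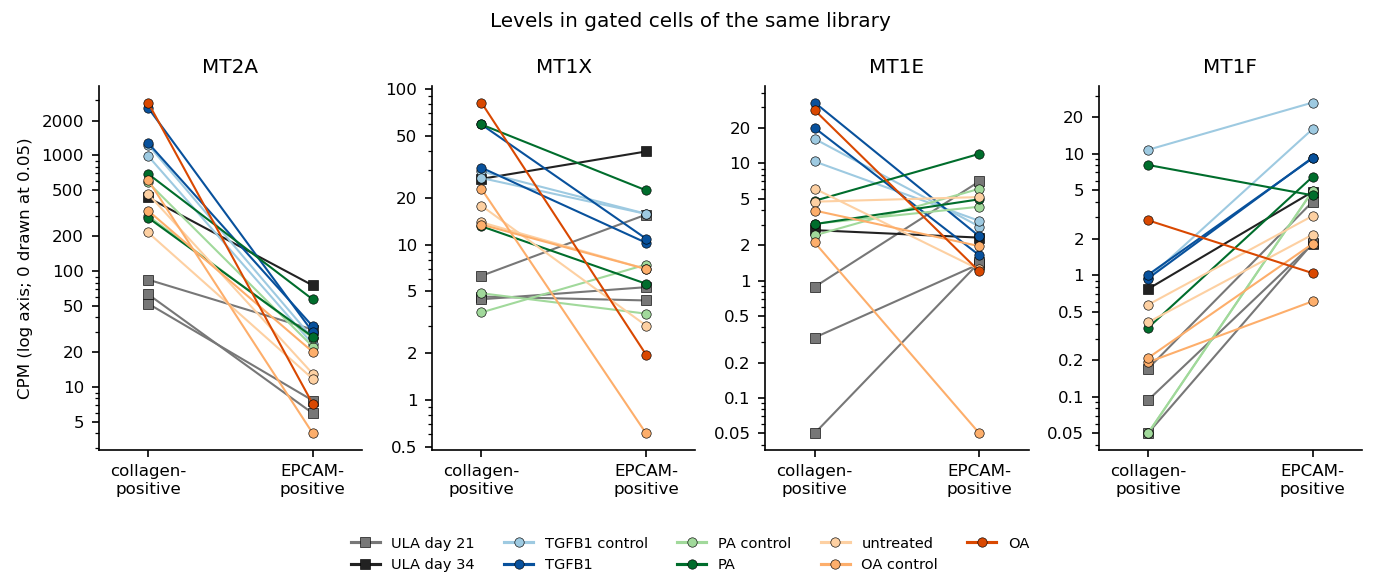
CPM (log axis, 0 drawn at 0.05) of MT2A, MT1X, MT1E and MT1F in collagen-positive and EPCAM-positive cells. Lines join the gates of 1 library, circles are shaker and squares ULA libraries. MT2A falls to the right in every library drawn, and MT1F rises in 11 of 13 shaker and 4 of 4 ULA libraries.

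The makeup of the family followed the gates. MT2A was 87.0% to 98.8% (median 96.0%) of family UMIs in collagen-positive shaker cells and 35.6% to 76.7% (median 46.9%) in EPCAM-positive ones. In EPCAM-positive shaker cells MT1X made up 6.25% to 30.6%, MT1F 5.19% to 35.5% and MT1G 0% to 32.8% of the family. MT1F held the largest MT1 share in EPCAM-positive cells of TGFB1 control replicate 1 (35.5%), and MT1G in those of PA control replicate 1 (32.8%). Of the 84 MT1G UMIs behind the last share, 44 came from 1 cell. Summed over a gate, collagen-positive cells thus gave nearly pure MT2A messages, and EPCAM-positive cells a mixture. Most EPCAM-positive cells had no family UMI, since 1.60% to 19.8% of them per shaker library had any.

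**Figure D3:**
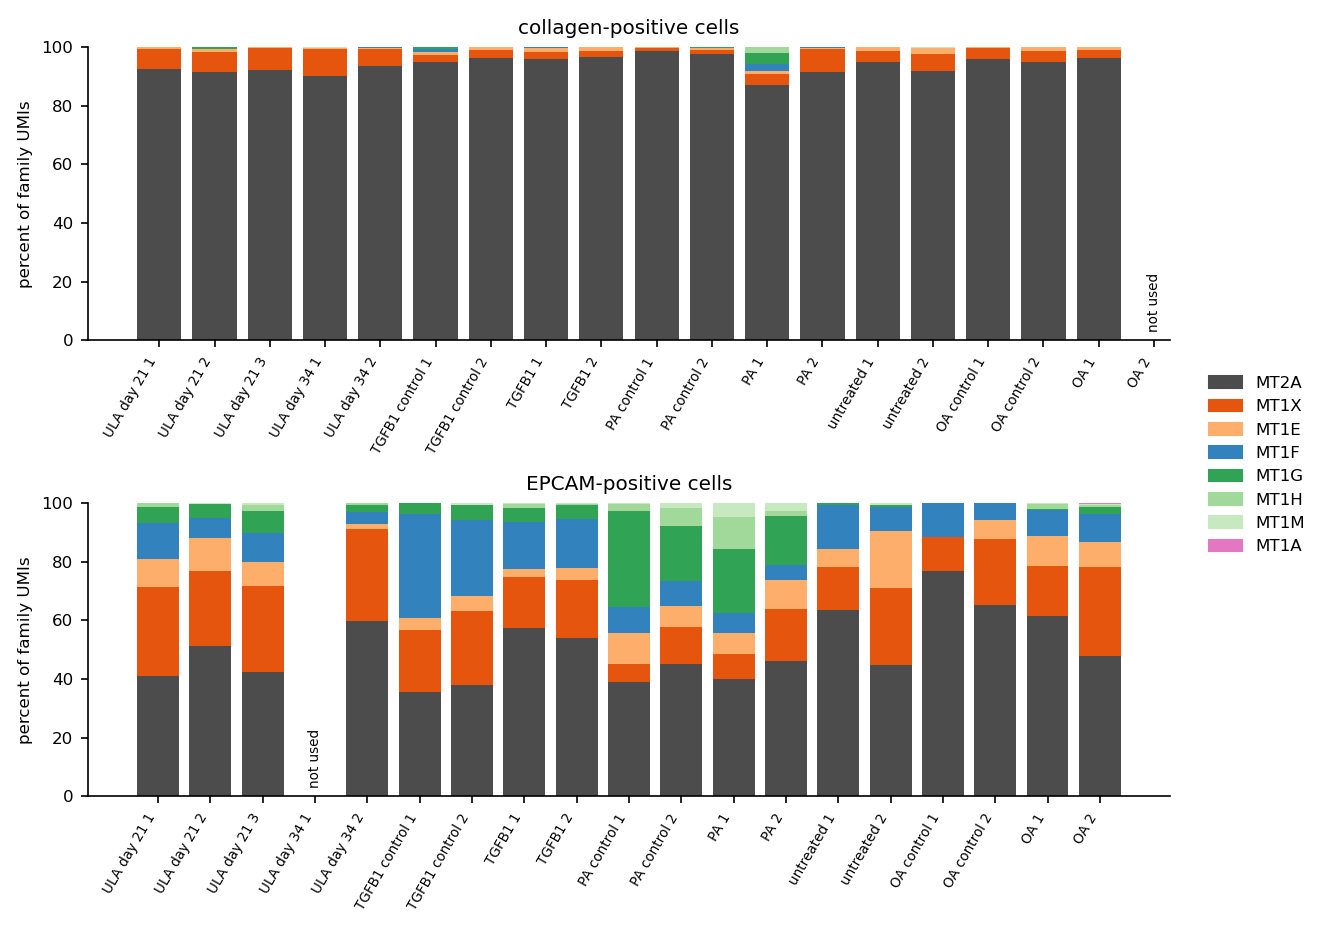
Percent of family UMIs given by each member in collagen-positive (top) and EPCAM-positive cells (bottom), 1 bar per library. Libraries with fewer than 50 cells in a gate are marked as not used. MT2A fills 87.0% to 98.8% of the shaker bars in the top panel and 35.6% to 76.7% in the bottom one.

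With TGFB1, a cytokine known for driving fibrosis, MT2A rose and MT1F fell. MT2A read 103 and 88.4 CPM in TGFB1 control and 225 and 407 CPM in TGFB1, and the groups did not overlap. This gave a log2 fold change of 1.92 with an SE of 0.53 (edgeR adjusted p 0.0213). MT1F read 28.2 and 14.9 CPM in control and 8.06 and 8.26 CPM with TGFB1, again without overlap, and its log2 fold change was -1.17 with an SE of 0.30 (edgeR adjusted p 0.0147). In this comparison 22.2% of all tested genes passed, so 2 of the 7 members tested is close to the background. Of the remaining members MT1E differed by 0.72, MT1X by 0.16, MT1G by -0.03, MT1H by 3.07 and MT1M by -0.39 on the log2 scale, none past the threshold, and MT1A was too low to test. The MT2A call was lost without control replicate 1, control replicate 2 or TGFB1 replicate 2 (log2 fold change 1.45 to 2.29 over the 4 omissions, edgeR adjusted p up to 0.143), and the MT1F call in 3 of 4 omissions, the exception being control replicate 2 (-1.48 to -0.78, adjusted p up to 0.147).

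The mesenchymal share moved with MT2A in this experiment. Collagen-positive cells were 3.92% and 4.57% of control cells and 8.55% and 9.56% of TGFB1 cells, and the 10 mesenchymal markers, all with UMIs in each library, summed to 539 to 567 CPM in control and 1478 to 1747 CPM with TGFB1. The part of this share in the MT2A level of whole libraries was not tested. Within collagen-positive cells MT2A read 1239 and 992 CPM in control and 1284 and 2582 CPM with TGFB1. These did not overlap, but the log2 fold change of 1.09 (SE 0.50) did not pass (edgeR adjusted p 0.356), in a gate where 0.0211% of genes passed. Without control replicate 2, 1121 genes passed there, still with no member. There MT1E read 16.1 and 10.4 CPM in control against 20.0 and 32.9 CPM with TGFB1 (log2 fold change 1.35, SE 0.38, edgeR p 0.00249, adjusted p 0.203). MT1E and MT2A were the 2 members with an unadjusted p under 0.05 in that gate, and neither edgeR nor DESeq2 called any of the 5 that passed the filter.

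In EPCAM-positive cells, whose mesenchymal markers summed to 112 to 156 CPM in control and 558 to 619 CPM with TGFB1, MT2A read 26.5 and 23.6 CPM in control and 33.6 and 29.9 CPM with TGFB1, or 0.55 with an SE of 0.47 in log2 fold change (edgeR adjusted p 0.421). MT1F read 26.4 and 15.9 CPM in control and 9.30 and 9.17 CPM with TGFB1, and fell by 0.96 (SE 0.31, edgeR adjusted p 0.0338; 25.0% of genes passed there). In the same cells the 5 gut markers summed to 504 to 578 CPM in control and 90.1 to 113 CPM with TGFB1, and the 4 cycling markers to 181 to 294 against 14.5 to 17.1 CPM. Other lists were higher with TGFB1 without overlap: the 8 epithelial markers at 4275 to 7220 against 9051 to 11424 CPM, the 9 hepatocyte markers at 2989 to 4262 against 5329 to 6231 CPM, the 4 neural markers at 37.9 to 42.5 against 57.9 to 81.6 CPM and the 4 squamous markers at 0.445 to 0.785 against 12.9 to 14.4 CPM. For all of these lists, the part in the MT1F level was not tested. MT1H, with 0 and 4 UMIs in control and 26 and 10 with TGFB1, also passed (log2 fold change 3.09, SE 1.04, edgeR adjusted p 0.0484). Both EPCAM-gate calls were lost in 3 of 4 omissions of a library, with edgeR adjusted p up to 0.219 for MT1F and 0.286 for MT1H. Both were also lost when a gate required 2 UMIs and when same-numbered replicates were fitted as a block. That of MT1H was lost with the stricter cell filter too. The TGFB1 effect did not differ between gates past the threshold for any member: for MT2A the difference was -0.50 (SE 0.54, edgeR adjusted p 0.754), and the 6.32% of genes that passed included no member, in edgeR or in DESeq2, with MT1E alone under an unadjusted p of 0.05. The share of cells with an MT2A UMI, after thinning each cell to 1500 UMIs, was 32.1% and 31.6% of collagen-positive control cells and 41.4% and 48.3% with TGFB1 (unthinned 26.2%, 49.5%, 62.4% and 66.5%; 261, 46, 82 and 65 cells were too shallow to thin), against 1.78% to 3.51% of EPCAM-positive cells.

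PA changed no member past the threshold. MT2A read 60.5 and 57.5 CPM in PA control and 40.9 and 98.5 CPM with PA, and the control values lay between those of PA. MT1X read 4.22 and 9.61 CPM in control and 5.71 and 33.7 CPM with PA, which overlapped; its log2 fold change of 1.52 (SE 0.62) had an edgeR p of 0.0281 and an adjusted p of 1. MT1M read 0.145 and 0.861 CPM in control and 2.40 and 2.65 CPM with PA (2.04, SE 0.88, edgeR p 0.0374, adjusted p 1). These 2 members were the ones with an unadjusted p under 0.05, DESeq2 called none, and 0.0465% of all genes passed, so the comparison had few calls of any kind. MT1G read 14.4 and 8.57 CPM in control and 12.3 and 19.1 CPM with PA, and MT1H 2.62 and 2.76 against 6.01 and 2.10 CPM.

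Within the gates of the PA experiment, MT1X had the lowest p of the members in collagen-positive cells. It read 4.86 and 3.66 CPM in control (2 and 12 UMIs) and 13.1 and 59.3 CPM with PA (13 and 161 UMIs), and the groups did not overlap. The log2 fold change of 3.39 (SE 0.70) had an edgeR p of 0.00018 and an adjusted p of 0.189. In the same cells the 9 hepatocyte markers summed to 1319 to 1557 CPM in control and 2368 to 2435 CPM with PA, the 8 epithelial markers to 1280 to 1549 against 1731 to 1844 CPM, the 5 gut markers to 31.6 to 33.8 against 48.4 to 71.5 CPM and the 5 endothelial markers to 38.9 to 44.2 against 23.6 to 29.3 CPM; their part in the MT1X level was not tested. No gene passed in that gate by edgeR (0% of 14189 genes, 581 at an unadjusted p under 0.05), while DESeq2 called 18 genes and 1 member, MT1X. MT1X also passed with no filter on low counts and without PA replicate 1. The 3 members under an unadjusted p of 0.05 were MT1X, MT1F (0 against 9 UMIs) and MT1G (1 against 15 UMIs). In PA replicate 1, 2 cells held 6 of the 8 MT1F UMIs and all 12 MT1G UMIs of this gate. PA replicate 2 had 1 MT1F and 3 MT1G UMIs there. In EPCAM-positive cells 0.103% of genes passed and no member did, by edgeR or DESeq2; MT1M, with 0.224 and 1.10 CPM in control and 3.16 and 3.15 CPM with PA, was the single member under an unadjusted p of 0.05. The difference of the PA effect between gates passed for 0.0107% of genes and no member by either tool, with MT1F and MT1X under an unadjusted p of 0.05.

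MT2A did not pass the test between OA organoids and their control. It read 147 and 125 CPM in OA control and 54.0 and 30.0 CPM with OA, without overlap; the log2 fold change of -1.36 (SE 0.53) fell just short of the threshold (edgeR adjusted p 0.0523). It passed with DESeq2, with no filter on low counts and with the richest cells removed, and in none of the 4 omissions of a library. In OA replicate 1, 918 MT2A UMIs, 31.5% of that library's, came from 1 cell with UMIs of both EPCAM and a collagen gene, in neither gate. Collagen-positive cells were 35.3% and 37.5% of control cells and 1.18% and 1.94% of OA cells, and the mesenchymal markers summed to 1863 to 3028 CPM in control and 178 to 204 CPM with OA. Within EPCAM-positive cells MT2A read 4.01 and 20.2 CPM in control and 7.20 and 4.63 CPM with OA, which overlapped (log2 fold change -0.70, SE 0.49, edgeR adjusted p 0.285). Within collagen-positive cells it read 615 and 334 CPM in control and 2862 CPM in OA replicate 1, over 60 cells; replicate 2 had 3537 CPM over 38 cells, under the minimum, so this gate was not tested. The collagen-positive cells of OA were unlike those of the control, with mesenchymal markers at 1781 to 2713 against 7725 to 8486 CPM and epithelial markers at 3996 to 4484 against 1044 to 1080 CPM. The part of the mesenchymal share in the MT2A level was not tested.

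In whole OA libraries edgeR called 1 member, MT1H, where 43.3% of all genes passed; DESeq2 called 3 members. It read 0 and 0.0191 CPM in OA control (0 and 1 UMI) and 1.56 and 0.0960 CPM with OA (84 and 5 UMIs), or 6.45 with an SE of 1.60 in log2 fold change (edgeR adjusted p 0.0058). Of the 84 UMIs in OA replicate 1, 75 came from 1 cell that also held 918 MT2A UMIs. The call stayed with the richest cells removed and was lost without OA replicate 1 (edgeR adjusted p 0.197). In EPCAM-positive cells, where 35.9% of genes passed, MT1G was called on 0 and 0 UMIs in control against 3 and 11 with OA (edgeR adjusted p 0.0387), where a count of 0 allows up to 3 UMIs per library; this call was lost in 5 of 8 alternative settings and 3 of 4 omissions of a library.

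Between OA control and untreated shaker organoids no member passed the test; the labels do not say what the control received. MT2A read 191 and 48.8 CPM in untreated and 147 and 125 CPM in OA control, which overlapped (log2 fold change 0.38, SE 0.52, edgeR adjusted p 0.778). By edgeR 0.573% of genes passed and 0 of 7 tested members did, and DESeq2 called no member. MT1G alone was under an unadjusted p of 0.05, with a log2 fold change of 1.69. That value was -0.37 with the richest cells removed and -0.20 with predicted doublets removed. A single cell of OA control replicate 2, in neither gate, held 40 MT1G UMIs. OA control serves both this comparison and that with OA. The untreated libraries alone spanned a wider MT2A range than OA control.

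Day 34 ULA organoids had the highest group mean of MT2A in the series. MT2A read 26.1, 52.6 and 24.1 CPM on day 21 and 679 and 213 CPM on day 34, and MT1X 4.41, 8.34 and 4.55 CPM against 80.8 and 39.3 CPM; neither overlapped. The 4 squamous markers moved with them in whole libraries, from 7.26 to 11.5 CPM on day 21 to 291 to 1407 CPM on day 34, and their part in the rise was not tested. The log2 fold changes were 3.57 (SE 0.54, edgeR adjusted p 0.00776) for MT2A and 3.25 (SE 0.39, adjusted p 0.0036) for MT1X, where 15.6% of genes passed. MT1E (1.80), MT1F (0.78) and MT1H (2.01) were higher on the log2 scale on day 34 without passing (edgeR adjusted p 0.103, 0.158 and 0.0798), MT1G differed by 0.25, and MT1A and MT1M did not pass the filter. The MT2A call was lost without day 21 replicate 3 (edgeR adjusted p 0.0637), and that of MT1X held in all 5 omissions. Both calls were lost with same-numbered replicates fitted as a block (edgeR adjusted p 0.143 for MT2A and 0.106 for MT1X). Over the 5 omissions the log2 fold change ran from 2.51 to 4.16 for MT2A and from 2.65 to 3.66 for MT1X. With a day 34 library left out, that group held 1 library. Replicate 1 of day 34 was far above replicate 2 for both genes.

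Within collagen-positive cells MT2A and MT1X were higher on day 34, and so were the levels of MT1E. There MT2A read 63.5, 84.9 and 52.7 CPM on day 21 and 1149 and 434 CPM on day 34 (log2 fold change 3.42, SE 0.40, edgeR adjusted p 0.00207), and MT1X 4.63, 6.29 and 4.44 against 114 and 26.5 CPM (3.63, SE 0.53, adjusted p 0.00428). MT1E read 0.327, 0.884 and 0.0473 CPM on day 21 and 7.13 and 2.69 CPM on day 34 (log2 fold change 3.32). Its UMIs were 7, 26 and 1 on day 21 and 246 and 56 on day 34. It thus passed the filter only through day 34, where it was high, so its levels are a description, with no test. MT2A and MT1X passed the test, where 17.7% of all genes did. The 5 members other than these and MT1E were too low for the filter. The 4 squamous markers of these cells summed to 0.476 to 0.662 CPM on day 21 and 37.5 to 780 CPM on day 34, and the 8 epithelial markers to 747 to 965 against 794 to 2943 CPM, so the gate itself differed between days; the part of this in the rise was not tested. The MT2A and MT1X calls held in all 5 omissions and all 8 other settings. The log2 fold change of MT1E ran from 2.42 to 4.58 over the 5 omissions. Collagen-positive cells were 36.9% to 57.1% of day 21 cells and 31.7% and 49.5% of day 34 cells, so their share overlapped between days, while the 9 hepatocyte markers summed to 2358 to 2735 CPM on day 21 and 95.8 to 842 CPM on day 34; the part of these differences in the metallothionein levels of whole libraries was not tested.

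In EPCAM-positive ULA cells the day comparison had 1 usable day 34 library and was not tested by itself. The model over both gates took only libraries with at least 50 cells in each gate, so day 34 was replicate 2 alone in both gates. Its log2 difference of the day effect between gates was -0.32 for MT2A, -0.25 for MT1X and -3.37 for MT1E. The spread in this model comes from day 21 alone, so these values are effect sizes without a test. MT1F was too low for the filter in collagen-positive cells, so its levels are given without a test. EPCAM-positive MT1E read 1.39, 7.01 and 1.43 CPM on day 21 and 2.33 CPM on day 34, and MT1F 1.81, 4.03 and 1.83 CPM against 4.86 CPM. The 23 EPCAM-positive cells of day 34 replicate 1, which were not used, had 57.1 CPM of MT1E (15 UMIs, 11 of them in 1 cell) and 26.6 CPM of MT1F (7 UMIs), both above the day 21 range. In collagen-positive cells MT1F rested on 2, 5 and 0 UMIs on day 21 and 16 in day 34 replicate 2.

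**Figure D4:**
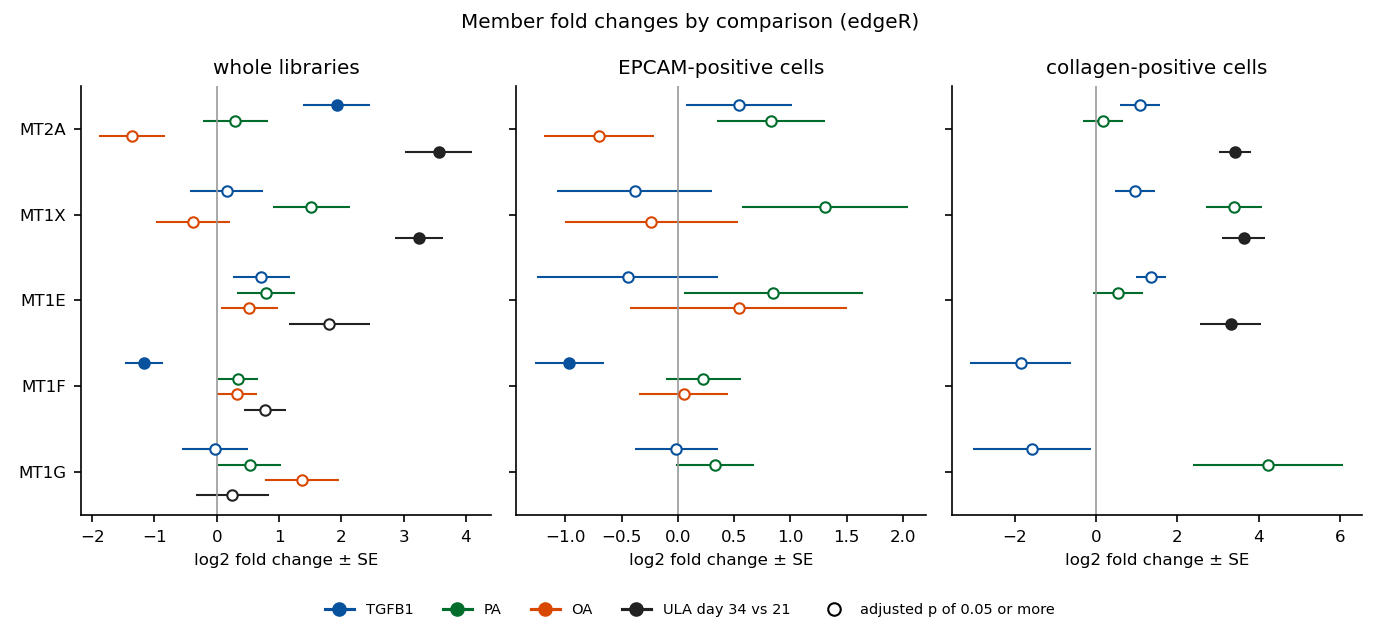
Log2 fold changes (± SE, edgeR) of 5 members in whole libraries, EPCAM-positive and collagen-positive cells, by comparison. Filled points have an adjusted p under 0.05, and points resting on a group with 0 UMIs are not drawn. The filled ULA day 34 point of MT1E in collagen-positive cells passed the filter only through day 34 and is a description. The ULA day 34 points of MT2A and MT1X lie at 3.57 and 3.25 in whole libraries and at 3.42 and 3.63 in collagen-positive cells.

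Metallothionein messages were held by few cells. Cells with at least 20 family UMIs, a limit set after seeing the data, were 0.166% to 2.68% of cells in shaker libraries and held 27.3% to 82.5% of the family's UMIs. In ULA libraries they were 0.222% to 10.3% of cells and held 23.5% to 89.6% of the UMIs, with the upper ends from day 34 replicate 1 (444 of 4326 cells). TGFB1 had 1.88% and 2.68% such cells at median depths of 7092.5 and 5201.5 UMIs per cell, and its control 0.166% and 0.717% at 1310 and 5635. The limit is a fixed number of UMIs that depth can move, so no difference is read from these shares.

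The richest cells are described by gate, pooled over the 14 shaker libraries. In 442 collagen-positive cells with at least 20 family UMIs, 5 of them from the 38-cell gate of OA replicate 2, MT2A gave 96.8% of the family UMIs and MT1X 2.04%. In 117 EPCAM-positive ones, 37 of them from PA replicate 2, MT2A gave 46.7%. MT1G in these cells differed by library, with 841 of 4880 family UMIs in PA replicate 2 and 0 of 305 in OA control replicate 2. By library the MT2A share of such cells was 62.3% to 100% in collagen-positive cells and 35.4% to 67.5% in the EPCAM-positive cells of the 12 libraries that had any, so the ranges overlapped. A collagen-positive cell of untreated replicate 1 held 673 family UMIs, 4.74% of its RNA, of which 657 were MT2A and 0 were MT1G. An EPCAM-positive cell of PA replicate 2 held 909, 8.38% of its RNA, as 577 MT2A, 141 MT1X, 126 MT1E, 51 MT1G and 14 MT1F. In PA replicate 1 another EPCAM-positive cell held 227 family UMIs among 2866, spread over 7 members with 59 MT1G, 58 MT2A and 48 MT1H. Members did not always rise together in a cell: in PA control replicate 2 an EPCAM-positive cell held 68 MT1H and 7 MT1F UMIs and 0 of every other member. These cells were picked for their counts and are given as examples.

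How widely a member was spread differed by gene. In whole shaker libraries 50% of MT1G UMIs came from 1 to 6 cells, and 12.1% to 92.5% from the single richest cell. In PA control replicate 2, the MT1G level of 8.57 CPM rested on 388 UMIs, 135 of them from 1 cell and 50% from 2 cells. MT1H and MT1M UMIs also sat in few cells, with 50% of them in 1 to 3 cells of every shaker library that had any. Counts of 3 UMIs or fewer, 0 included, force this however the UMIs spread. They occurred in 4 of 14 shaker libraries for MT1H, 6 for MT1M and 1 for MT1G, so these genes are not ranked by concentration. MT1F was the opposite in the TGFB1 experiment, where 50% of its UMIs were spread over 130 to 298 cells in each library. In the PA experiment the corresponding number for MT1F was 5 to 16 cells, and in OA control replicate 1 it was 1 cell with 47 of 88 UMIs. MT2A needed 0.124% to 1.45% of shaker cells to reach 50%.

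**Figure D5:**
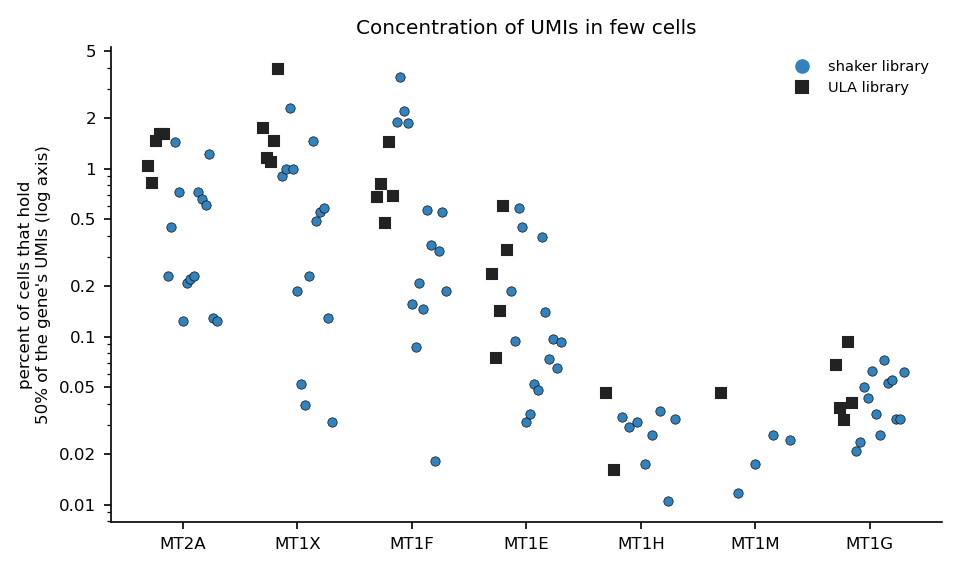
Percent of a library's cells (log axis) that together hold 50% of a gene's UMIs, for libraries with at least 10 UMIs of the gene. Circles are shaker and squares ULA libraries. MT1G lies between 0.0208% and 0.0925% throughout, while MT1F reaches 3.50% in the TGFB1 control.

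Genes that sense, move or answer to metals were listed by role beside the family. Of 21 genes for zinc sensing and transport, 6 passed with TGFB1 (5 higher, 1 lower; median log2 fold change 0.05 against -0.05 over all genes), where 22.2% of all genes passed. They included SLC39A11 (1.21), SLC39A13 (0.91) and SLC39A1 (0.81), zinc transporters of the ZIP family that rose, and SLC39A5 (-1.94), a zinc importer of gut and liver epithelium, which fell (edgeR adjusted p of at most 0.0176). MTF1 differed by -0.48 (SE 0.23, edgeR adjusted p 0.143) and SLC30A1, its classical target, by 0.03 (SE 0.34, adjusted p 0.97). The copper genes CP (-2.79), encoding ceruloplasmin, and ATP7B (-1.42), the liver copper pump, fell (2 of 12, beside the same 22.2%, edgeR adjusted p of at most 0.0224). In whole libraries with TGFB1, edgeR called 0 of 10 glucocorticoid-responsive genes (5 at an unadjusted p under 0.05, 0 by DESeq2) and 0 of 12 heat shock and oxidative stress genes (4 unadjusted, 1 by DESeq2). In EPCAM-positive cells FKBP5 (-1.50) and SGK1 (-0.79), 2 of the 10 glucocorticoid-responsive genes, fell, where 25.0% of all genes passed. With PA, edgeR called no gene of the 4 lists in whole libraries; at an unadjusted p under 0.05 there were 3 glucocorticoid-responsive and 2 heat shock and oxidative stress genes, and DESeq2 called 2, both glucocorticoid-responsive. Between OA control and untreated edgeR again called none, with 3 zinc, 2 copper, 1 glucocorticoid-responsive and 3 heat shock and oxidative stress genes at an unadjusted p under 0.05, and DESeq2 called 1 zinc gene.

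With OA, 10 of the 21 zinc genes passed, 8 of them higher (median 0.45 against -0.08 over all genes), where 43.3% of all genes passed; the counts of the other lists in whole OA libraries stand beside the same share. MTF1 rose by 0.72 (SE 0.23, edgeR adjusted p 0.0207) and SLC30A1 by 1.34 (SE 0.34, adjusted p 0.00671), with SLC39A4 at 4.18, SLC30A10 at 2.50 and SLC39A5 at 1.39. MT2A in the same libraries was at -1.36 without passing, on the other side of 0 from SLC30A1, the zinc exporter. Of the 12 heat shock and oxidative stress genes 8 rose, with SLC7A11 at 2.68, GCLM at 2.32, TXNRD1 at 2.28 and SRXN1 at 1.65 (edgeR adjusted p of at most 0.00236). In EPCAM-positive cells SLC30A1 rose by 1.10 (SE 0.31, edgeR adjusted p 0.0143), and MTF1, at 0.52, did not pass (adjusted p 0.0883). Of the 12 copper genes 6 rose in whole libraries, led by COX17 (1.75) and SLC31A2 (1.62), and of the 10 glucocorticoid-responsive genes 4 rose and 4 fell. EPCAM-positive cells were 23.1% and 32.4% of OA control cells and 88.4% of cells in both OA libraries. The 5 gut markers summed to 1048 to 2032 CPM in control and 8880 to 10342 CPM with OA in whole libraries, and to 1332 to 2588 against 9060 to 10812 CPM in EPCAM-positive cells. There hepatocyte markers (16649 to 18203 against 23918 to 24896 CPM) and immune markers (14.9 to 20.2 against 73.4 to 86.8 CPM) were also higher with OA. Cycling markers were lower (186 to 195 against 78.3 to 91.6 CPM). Each of these lists moved the same way in whole libraries. In EPCAM-positive cells epithelial and endothelial markers were also higher and neural markers lower, without overlap. The part of these differences in the list genes was not tested.

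On ULA day 34, 7 of 10 glucocorticoid-responsive genes rose and none fell (median log2 fold change 1.44 against 0.01 over all genes), where 15.6% of all genes passed. CEBPD (1.97), SGK1 (1.76), PER1 (1.71) and FKBP5 (1.66), the last a chaperone and textbook glucocorticoid target, were the largest (edgeR adjusted p of at most 0.0137). In collagen-positive ULA cells 5 of 10 rose, led by SGK1 (2.17) and ERRFI1 (1.82), where 17.7% of all genes passed. In whole libraries 5 of 21 zinc genes passed, 1 higher and 4 lower, among them SLC39A4 (-4.53) and SLC39A5 (-4.28), both epithelial importers. EPCAM-positive cells were 11.7% to 18.8% of day 21 cells and 0.532% and 6.01% of day 34 cells, and the 5 gut markers summed to 1274 to 1676 CPM on day 21 and 8.29 to 85.7 CPM on day 34. Hepatocyte, immune and cycling markers (617 to 733 against 277 to 407 CPM) were also lower on day 34 without overlap. Squamous markers (7.26 to 11.5 against 291 to 1407 CPM) and neural markers were higher. In collagen-positive cells squamous markers rose from 0.476 to 0.662 CPM to 37.5 to 780 CPM, and cycling markers fell from 699 to 908 CPM to 403 to 447 CPM. The part of these differences in the list genes, rising or falling, was not tested. MTF1 (0.16, edgeR adjusted p 0.648) and SLC30A1 (0.42, adjusted p 0.506) did not pass, nor did they in collagen-positive cells (0.23 and 0.54).

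Between the gates 50.6% of all genes passed in shaker and 52.8% in ULA organoids, and the counts of the lists stand beside these shares. SLC30A1 was higher in EPCAM-positive cells by 1.21 (SE 0.12, edgeR adjusted p 1.04e-08) in shaker and 1.18 (SE 0.13, adjusted p 1.49e-07) in ULA organoids, opposite to MT2A. MTF1 differed little, by 0.30 (SE 0.13, edgeR adjusted p 0.0596) and 0.43 (SE 0.16, adjusted p 0.0262). Of the 10 glucocorticoid-responsive genes 8 were lower and 2 higher in EPCAM-positive shaker cells, with FKBP5 at -5.39, ZBTB16 at -4.05 and KLF9 at -2.49. In ULA organoids 5 were lower and 5 higher, with FKBP5 at -2.53. Among zinc genes SLC39A8, an importer, was lower in EPCAM-positive shaker cells (-3.71), and SLC30A10 (6.57), SLC39A4 (5.20) and SLC39A5 (4.73) were higher, within 14 of 21 that passed (10 higher, 4 lower). The medians of the zinc list (0.30 in shaker, 0.27 in ULA) stood beside 0.29 and -0.03 over all genes.

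Over the 14 shaker libraries the genes whose log2(CPM + 1) ran closest to MT2A, among 6081 with a mean of at least 20 CPM, were DSE (Pearson r 0.90), VKORC1 (0.89), TUSC1 (0.89), TPST1 (0.88) and BAMBI (0.88). For the summed family they were VKORC1 (0.88), DSE (0.88), IGFBP7 (0.87), AKIP1 (0.86) and TUSC1 (0.86). The libraries differ in cell makeup and in experiment, so the r values are descriptions.

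Other metallothionein loci added little. The 4 listed in shaker matrices (MT3, MT4, MT1B, MT1HL1) had 50 UMIs, 0.0556% beside the 89824 of the 8 members, and the 13 listed in ULA matrices had 820, 0.868%. MT1L, a pseudogene, gave 409 of these and MT3, the brain form, 178, of which 169 were in day 34 replicate 1. Because the messages are short and alike, reads near the 3′ end can fit more than 1 gene. Of the 50-base windows in the last 300 bases of each annotated transcript, 1.99% in MT1E, 9.16% in MT1F, 7.97% in MT1A, 14.3% in MT2A, 17.5% in MT1M, 25.5% in MT1X, 28.3% in MT1H and 28.7% in MT1G occur in another metallothionein gene. How reads that fit several genes were counted is not given in the sources used here, so counts of the members are uncertain to that extent, most of all MT1G, MT1H and MT1X.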

How the data were processed

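The labels' protocols name 10x Genomics 3′ v3 libraries. The authors deposited filtered matrices of UMI counts, not normalized; bcl2fastq, Cell Ranger 3.0.2, Scanpy and GRCh38 are named in the submitters' processing notes, and matrix headers give 3.0.2 or 6.0.2. The members and lists were chosen with earlier results of these data known. Cells with at least 500 genes and at most 20% mitochondrial UMIs were kept, and no doublets were removed in the main analysis. UMIs were summed per library, whole and by gate (at least 50 cells). edgeR 4.0.16 (TMM, filterByExpr, glmQLFTest; R 4.3.3) was fitted over all genes, the 14 shaker and 5 ULA libraries apart, with Benjamini-Hochberg adjustment and a threshold of 0.05; the SE is the log2 fold change over the root of F. The procedure was tested on simulated counts. Groups hold 2 or 3 libraries, fewer in some gates, and all groups of a fit share the same estimate of the spread. Intervals or limits from counts cover counting error only. Named list genes passed the threshold, at most 4 per list by size, with MTF1 and SLC30A1 always named. Alternatives were DESeq2 1.42.0, RLE factors, no filter on low counts, a stricter cell filter (1000 genes, 10%), predicted doublets removed (Scrublet, 0.8% per 1000 barcodes), 2 UMIs for a gate, a replicate block, each library left out, and, chosen after seeing the data, removal of each member's richest cell in each library.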

Additional observations from a re-analysis of the deposited data

Results flagged for a closer look

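In ULA organoids the model over both gates gave MT1E a log2 difference of the day 34 effect (EPCAM-positive minus collagen-positive) of -3.37. Only libraries with at least 50 cells in each gate entered it, so day 34 was replicate 2 alone in both gates. The spread then comes from day 21 alone, and the value is an effect size without a test. EPCAM-positive levels of MT1E were 1.39, 7.01 and 1.43 CPM on day 21 and 2.33 CPM on day 34. Collagen-positive levels were 0.327, 0.884 and 0.0473 against 7.13 and 2.69 CPM, and the 7.13 CPM belongs to replicate 1, outside the model. MT1E was higher on day 34 in collagen-positive cells, and the EPCAM-positive value of day 34 replicate 2 lay inside the day 21 range. The unused day 34 replicate 1, with 23 EPCAM-positive cells, read 57.1 CPM there on 15 UMIs, above that range. For MT1F the same model gave -2.31; MT1F was too low for the filter in collagen-positive cells alone and entered through the EPCAM-positive ones, so that value is a description, with no test.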

How the results depend on the processing

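Of 1095 member fold changes under alternatives, 950 kept direction and side of the threshold, 40 lost and 37 gained a call, and 68 changed sign, none of them a called value; 7 had no adjusted p from DESeq2. The cause of each change below was not tested. Comparisons are named by agent and cell set, and "by gate" is the difference between gates. The fit of ULA day by gate holds 1 day 34 library, so its counts of calls are not read as tests. With predicted doublets removed, members called were 2 (OA whole), 0 (OA EPCAM). Genes called were 4 (PA by gate). Fold changes on the other side of 0 were MT1G 0.03 (TGFB1 whole), MT1G -0.20 (OA control against untreated whole), MT1G 0.10 (TGFB1 EPCAM), MT1X 0.45 (OA EPCAM). With the stricter cell filter, members called were 1 (TGFB1 EPCAM), 0 (OA EPCAM). Genes called were 6 (TGFB1 collagen), 44 (PA by gate), 2490 (ULA day by gate). Fold changes on the other side of 0 were MT1G 0.01 (TGFB1 whole), MT1G -0.22 (ULA day whole), MT1F -0.05 (OA EPCAM), MT1G 5.05 (TGFB1 collagen), MT1G -6.61 (TGFB1 by gate), MT1E -0.03 (PA by gate), MT2A -0.16 (PA by gate). With the richest cells removed (chosen after seeing the data), members called were 2 (OA whole), 1 (ULA day by gate). Fold changes on the other side of 0 were MT1G 0.27 (TGFB1 whole), MT1M 0.40 (TGFB1 whole), MT1G -0.37 (OA control against untreated whole), MT1E 0.13 (TGFB1 EPCAM), MT1G 0.39 (TGFB1 EPCAM), MT1M 0.03 (TGFB1 EPCAM), MT1F -0.01 (OA EPCAM), MT1G 1.04 (ULA day by gate), MT1X 0.04 (ULA day by gate), MT2A 0.04 (ULA day by gate). With no filter on low counts, members called were 2 (PA whole), 3 (OA whole), 2 (OA control against untreated whole), 6 (ULA day whole), 2 (PA EPCAM), 2 (OA EPCAM), 2 (TGFB1 collagen), 1 (PA collagen), 6 (ULA day collagen), 2 (TGFB1 by gate), 1 (PA by gate). Genes called were 162 (PA whole), 523 (OA control against untreated whole), 126 (PA EPCAM), 458 (TGFB1 collagen), 81 (PA collagen), 4758 (ULA day collagen), 81 (PA by gate). With DESeq2, members called were 3 (OA whole), 1 (PA collagen), 1 (ULA day by gate). Genes called were 54 (PA whole), 702 (OA control against untreated whole), 47 (PA EPCAM), 109 (TGFB1 collagen), 18 (PA collagen), 2334 (ULA day by gate). Fold changes on the other side of 0 were MT1H 0.05 (PA by gate). With 2 UMIs for a gate, members called were 0 (TGFB1 EPCAM), 0 (OA EPCAM), 1 (TGFB1 by gate), 1 (ULA day by gate). Genes called were 4 (PA collagen), 15 (PA by gate). Fold changes on the other side of 0 were MT1G 0.13 (TGFB1 EPCAM), MT1F -0.00 (OA EPCAM), MT1F -0.40 (TGFB1 by gate). With RLE factors, genes called were 1 (TGFB1 collagen). With 1 library left out, members called ranged over 0 to 1 (TGFB1 whole), 0 to 2 (OA whole), 1 to 6 (ULA day whole), 0 to 1 (TGFB1 EPCAM), 0 to 1 (OA EPCAM), 0 to 1 (PA collagen), 2 to 5 (ULA day collagen), 2 to 4 (gates, shaker), 1 to 2 (ULA day by gate). Genes called ranged over 1704 to 5554 (TGFB1 whole), 0 to 20 (PA whole), 5171 to 6570 (OA whole), 0 to 164 (OA control against untreated whole), 697 to 7166 (ULA day whole), 1888 to 5460 (TGFB1 EPCAM), 0 to 28 (PA EPCAM), 3260 to 4469 (OA EPCAM), 0 to 1121 (TGFB1 collagen), 0 to 6 (PA collagen), 762 to 4685 (ULA day collagen), 632 to 956 (TGFB1 by gate), 0 to 5 (PA by gate). Log2 fold changes ranged over MT1G -0.25 to 0.17 (TGFB1 whole), MT1M -1.25 to 5.45 (TGFB1 whole), MT1X -0.06 to 0.37 (TGFB1 whole), MT1H -0.29 to 1.22 (PA whole), MT1X -0.28 to 2.28 (PA whole), MT2A -0.47 to 0.80 (PA whole), MT1E -0.16 to 1.17 (OA whole), MT1F -0.08 to 0.64 (OA whole), MT1X -1.13 to 0.11 (OA whole), MT1H -5.63 to 2.04 (OA control against untreated whole), MT1M -4.38 to 3.83 (OA control against untreated whole), MT2A -0.26 to 1.57 (OA control against untreated whole), MT1G -0.11 to 0.97 (ULA day whole), MT1G -0.18 to 0.28 (TGFB1 EPCAM), MT1M -1.10 to 4.77 (TGFB1 EPCAM), MT1F -0.06 to 0.45 (PA EPCAM), MT1G -0.08 to 0.79 (PA EPCAM), MT1H -0.20 to 1.79 (PA EPCAM), MT1X -0.04 to 1.97 (PA EPCAM), MT1E -0.62 to 8.19 (OA EPCAM), MT1F -0.53 to 0.84 (OA EPCAM), MT1X -1.15 to 2.15 (OA EPCAM), MT2A -1.41 to 0.72 (OA EPCAM), MT1F -2.97 to 0.14 (TGFB1 collagen), MT1G -2.98 to 5.23 (TGFB1 collagen), MT2A -0.60 to 0.75 (PA collagen), MT1F -0.84 to 1.70 (TGFB1 by gate), MT1G -6.91 to 3.20 (TGFB1 by gate), MT2A -1.07 to 0.19 (TGFB1 by gate), MT1E -0.12 to 0.82 (PA by gate), MT1H -6.19 to 4.57 (PA by gate), MT1X -0.49 to 0.24 (ULA day by gate), MT2A -0.69 to 0.31 (ULA day by gate). 

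The labels give groups the same replicate numbers, but same-numbered libraries did not deviate together throughout. Correlations of their deviations were -0.53 for TGFB1, 0.16 for PA, 0.08 for OA, -0.64 for OA control against untreated, and -0.24 and -0.31 for ULA. Whether the number marks a shared batch is not known, so the block is given as an alternative. With a replicate block, members called were 2 (OA whole), 0 (ULA day whole), 0 (TGFB1 EPCAM), 0 (OA EPCAM), 1 (PA collagen). Genes called were 4 (PA whole), 0 (OA control against untreated whole), 0 (ULA day whole), 3 (PA EPCAM), 16 (TGFB1 collagen), 2 (PA collagen), 1557 (ULA day collagen). Fold changes on the other side of 0 were MT1G 0.01 (TGFB1 EPCAM), MT1X 0.18 (OA EPCAM). The MT2A and MT1X calls on ULA day 34 were lost there (edgeR adjusted p 0.143 and 0.106). Depth limits MT1A, MT1H and MT1M, which rest on few UMIs in most libraries.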
